A study of Rattus norvegicus with 12 samples.

Results

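The smooth muscle contractile genes described here are Actg2, Acta2, Myh11, Tagln, Mylk, Des, Smtn, Cnn1 and Lmod1. They were found by name: every probe of the rat array that was not a control and carried 1 of these 9 symbols was taken, whatever its values, which gave 14 of the 30367 probes and 9 of the 26514 gene names on the array. Colon was taken on day 60 from 12 male Wistar rats of 200 to 250 g, and 1 array per rat, with 1 dye (Cy3), measured its RNA. Group C (rats C1 to C4) was handled normally and received placebo. Group M (M5 to M8) underwent neonatal maternal separation (NMS), for 180 min a day from day 2 to day 14, and received placebo. Group D (D9 to D12) underwent the same NMS and received VSL#3, a mixture of probiotic bacteria, from day 3 to day 60, at a daily dose on which the labels and the study's methods differ. Gavage and colorectal distension, the inflation of a balloon in the rectum, were common to all 3 groups, so that no array shows a colon without distension. The study analysed 11 arrays, those of D9 to D11 in Group D, and values of these 11 are given first, with rat D12 beside them.

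Smooth muscle cells form the outer muscle layers of the colon and the thin muscularis mucosae beneath its lining, and their contraction moves and mixes the contents of the gut. Calcium entering the cell activates myosin light chain kinase, which phosphorylates the light chains of smooth muscle myosin and lets the myosin filaments pull on actin, while desmin filaments and actin-binding proteins hold the apparatus together and tune it. Many genes of this apparatus are switched on by serum response factor with its partner myocardin, which bind the CArG box, a short run of A and T between a pair of C and a pair of G.

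The signal of a probe is given throughout as a log2 level, that is, log2 of its processed signal minus log2 of the 75th percentile of its array, and a difference of 1 on this scale is 2-fold. Probes bind with unequal strength, so that levels of different genes are not set against each other. All 14 probes were well above background on all 12 arrays and none was saturated. The summed linear signal of the 9 genes, in units of the 75th percentile, was 182 to 232 in Group C, 183 to 258 in Group M, 199 to 256 in rats D9 to D11 and 191 in rat D12. This sum is weighted toward the brightest probe, that of Actg2, and the signal of Lmod1 lay below the 75th percentile on every array. In whole colon, fewer muscle cells and less RNA per muscle cell cannot be told apart. The arrays of Groups C and M shared 1 slide, in different rows, and those of Group D lay on a second slide, so that slide and group cannot be told apart in any comparison with Group D.

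The array reads each gene through 60-base probes. Those of Cnn1 and Myh11, members whose patterns over the rats differed as described below, and the second, dimmer probe of Smtn, whose brighter probe gave the levels of that gene below, are shown 5′ to 3′ as the array files give them, with no capitals since no part is marked.
Smtn, second probe, chr14:84165650-84165709, minus strand (rn4): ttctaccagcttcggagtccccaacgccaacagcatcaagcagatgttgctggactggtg
Cnn1, chr8:21219991-21220050, plus strand (rn4): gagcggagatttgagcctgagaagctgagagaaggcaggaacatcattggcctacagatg
Myh11, chr10:775993-776052, plus strand (rn4): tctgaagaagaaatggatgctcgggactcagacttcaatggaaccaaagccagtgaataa

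The files assign 13 of the 14 probes to a position of the rn4 build of the rat genome, and no position is given for the Acta2 probe. No annotation of that build was used here, so that the exon of each probe is not stated. The pair of Actg2 probes overlap by 46 bases and are not independent measurements of that gene. Between probes of different members the longest shared run was 9 bases in 86 pairs, and between the probes of Acta2 or Actg2 and those of the skeletal, cardiac and cytoplasmic actins Acta1, Actc1, Actb and Actg1 it was 8 bases in 15 pairs.

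Promoters in RefSeq (build GRCr8), from 250 bases before to 50 bases after the start of transcription, were matched by symbol for 6 of the 9 genes, namely Acta2, Actg2, Cnn1, Des, Mylk and Smtn. The letters CC, 6 bases of A or T and GG were searched, a pattern that reads the same on both strands, and then the same pattern with 1 G or C among the 6 bases. The strict box was in 0 of the 6 windows, and in 1.64% of 33469 promoters of the same length. With 1 mismatch allowed, Acta2 alone of the 6 held a match, and 9.42% of all the promoters did. Acta2 held a pair of matches, which begin 134 and 84 bases before the start. Its 150 bases upstream of the start are shown with both boxes in capitals, since they are the only matches in the 6 windows. The promoters of Tagln, Myh11 and Lmod1 were not searched. That a window holds no match says only that these letters are not in it.
Acta2, chr1:241172504-241172653, minus strand (GRCr8): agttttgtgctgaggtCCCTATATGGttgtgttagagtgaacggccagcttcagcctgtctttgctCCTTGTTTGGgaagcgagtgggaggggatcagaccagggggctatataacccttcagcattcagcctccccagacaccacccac

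The actins form the thin filaments. Actg2, the gamma actin of enteric smooth muscle, had log2 levels of 6.32, 6.41, 6.39 and 6.69 in rats C1 to C4, of 7.03, 6.40, 6.67 and 6.88 in M5 to M8 and of 6.75, 6.60 and 6.82 in D9 to D11, with 6.54 in D12. Groups M and D lay close together, at 6.75 ± 0.27 (SD, n = 4) and 6.72 ± 0.11 (SD, n = 3), above Group C at 6.45 ± 0.16 (SD, n = 4), but the ranges of all 3 groups overlapped. Acta2, the alpha actin of smooth muscle, which blood vessels and myofibroblasts also express, had levels of 1.31, 1.60, 1.35 and 1.98 in C1 to C4, of 2.34, 1.49, 1.80 and 2.45 in M5 to M8 and of 1.72, 1.48 and 1.44 in D9 to D11, with 1.43 in D12. Its 2 highest levels were those of M5 and M8, while M6 lay among the rats of Groups C and D.

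Myosin and its kinase drive the contraction. Myh11, the heavy chain of smooth muscle myosin, had log2 levels of 4.91, 4.88, 4.69 and 5.13 in C1 to C4, of 4.83, 4.64, 4.67 and 4.98 in M5 to M8 and of 4.97, 4.82 and 5.44 in D9 to D11, with 4.66 in D12. Mylk, the myosin light chain kinase, had levels of 4.33, 4.24, 4.07 and 4.48 in C1 to C4, of 4.41, 4.12, 4.08 and 4.48 in M5 to M8 and of 4.42, 4.37 and 4.68 in D9 to D11, with 4.11 in D12. By these probes, the brightest of each gene, rat D11 was the highest of the 12 rats for both genes. The order of the group means from the highest was D, C, M for both genes. By their second probes it was C, D, M, with means of 3.33, 3.32 and 3.16 for Myh11 and of 0.223, 0.160 and 0.159 for Mylk. For neither gene did any pair of groups separate by either probe.

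Des, desmin, the intermediate filament of muscle, had log2 levels of 3.70, 4.28, 4.20 and 4.16 in C1 to C4, of 4.80, 4.15, 4.56 and 4.87 in M5 to M8 and of 4.14, 3.76 and 4.43 in D9 to D11, with 4.15 in D12. In Group M, 3 of the 4 rats lay above all the other rats, and M6 lay inside the range of Group C. The group means were 4.59 ± 0.32 (SD, n = 4) in Group M, 4.11 ± 0.33 (SD, n = 3) in Group D and 4.08 ± 0.26 (SD, n = 4) in Group C, of which D and C differed by less than their spread.

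The actin-binding members did not share 1 pattern. Cnn1, calponin 1, which binds actin and slows the myosin ATPase, had log2 levels of 1.08, 1.80, 1.74 and 1.98 in C1 to C4, of 2.27, 1.66, 1.84 and 2.31 in M5 to M8 and of 1.62, 1.28 and 1.70 in D9 to D11, with 1.81 in D12. Tagln, transgelin or SM22, had levels of 4.50, 4.65, 4.55 and 4.95 in C1 to C4, of 4.91, 4.44, 4.55 and 4.80 in M5 to M8 and of 4.70, 4.52 and 4.93 in D9 to D11, with 4.45 in D12. For Cnn1 the 2 highest rats were M5 and M8 and the lowest was C1, whereas for Tagln the 3 group means, 4.66 ± 0.20 (SD, n = 4), 4.67 ± 0.22 (SD, n = 4) and 4.72 ± 0.20 (SD, n = 3) in Groups C, M and D, were closer to each other than the rats within a group.

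Smtn, smoothelin, a protein of fully differentiated contractile smooth muscle that lies along actin, had log2 levels of 3.47, 3.09, 3.32 and 3.82 in C1 to C4, of 3.22, 3.37, 2.90 and 3.16 in M5 to M8 and of 3.67, 3.51 and 4.00 in D9 to D11, with 3.17 in D12. Lmod1, leiomodin 1, which starts the growth of actin filaments in smooth muscle, had levels of -2.32, -2.67, -2.58 and -2.44 in C1 to C4, of -2.78, -2.63, -3.40 and -2.80 in M5 to M8 and of -2.18, -2.54 and -1.88 in D9 to D11, with -2.98 in D12. For both genes rats D9 to D11 lay above all 4 rats of Group M, rat D12 lay inside the range of Group M, and M7 was the lowest rat. The second probe of Lmod1 gave -2.53, -2.80, -2.37 and -2.51 in C1 to C4, -3.05, -2.97, -3.62 and -2.97 in M5 to M8 and -2.51, -2.61 and -2.06 in D9 to D11, with -3.03 in D12. By this probe all 4 rats of Group M lay below all 4 of Group C, which the brighter probe did not show, since M6 lay above C2 there.

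**Figure D1:**
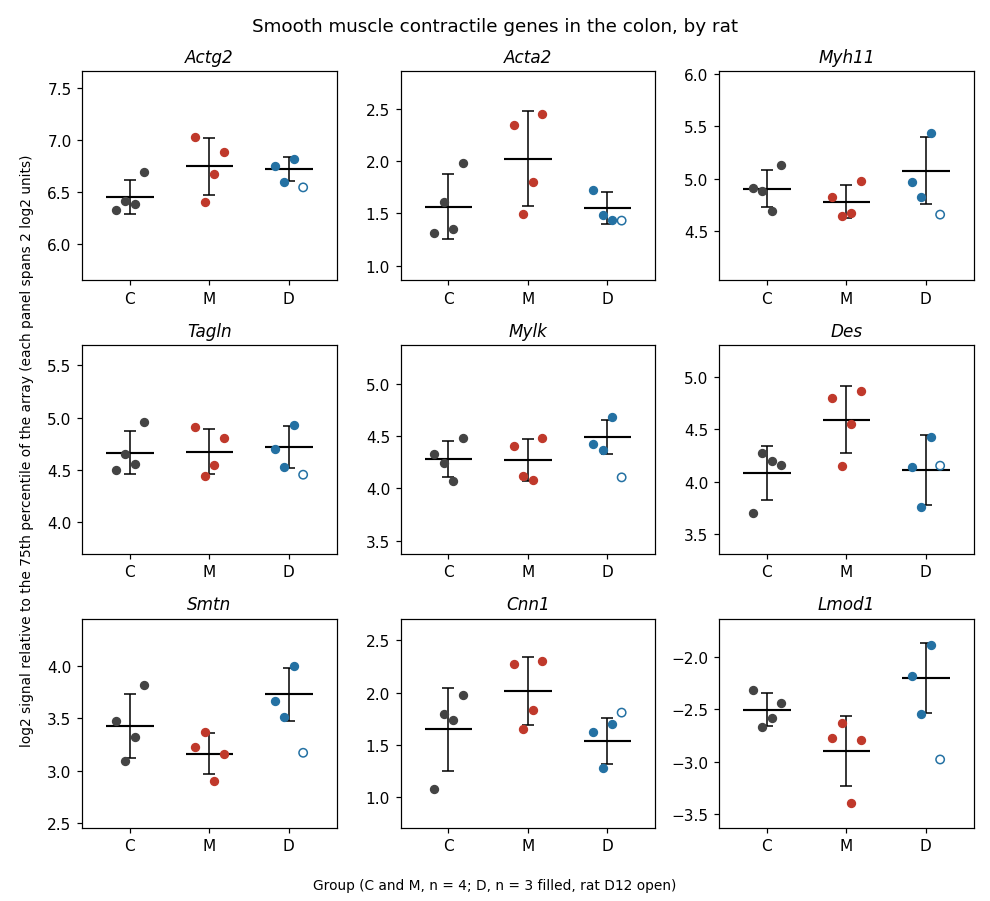
Log2 signal of each gene (vertical axes, relative to the 75th percentile of the array, each panel spanning 2 units) in the rats of Groups C, M and D, by the brightest probe of the gene; points are rats, the open point is rat D12, and bars are the mean ± SD over n = 4, 4 and 3 rats. Des is higher in rats M5, M7 and M8 than in any other rat, Lmod1 and Smtn are higher in D9 to D11 than in Group M, and the 3 groups coincide for Tagln.

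The comparison of Group M vs Group C asks what NMS left in the adult colon. The contractile genes did not move as 1 block between these groups: 5 of the 9 had higher means in Group M and 4 lower, and their median log2 difference was 0.01, beside -0.01 over all probes tested. At an adjusted p of at most 0.05 (limma, Benjamini-Hochberg over all probes) with a change of at least 2-fold, 0 of the 9 genes were called, where 0.165% of all probes were. At an unadjusted p of at most 0.05 there was 1 of 9, Des, and 22.7% of all probes passed that threshold. With so few genes this count cannot be told apart from the share over all probes. The study's methods used variance analysis followed by Tukey's test, both with p up to 0.05 before adjustment, and asked for 2-fold or more. By this criterion 0 of 9 passed, beside 2.31% of all probes.

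Des had the largest difference toward Group M, 0.51 (limma, SE 0.20, 1.43-fold, adjusted p = 0.174), and Acta2 with 0.46 (SE 0.23), Cnn1 with 0.37 (SE 0.22) and Actg2 with 0.29 (SE 0.14) lay on the same side. Tagln and Mylk were at 0.01 (SE 0.15) and -0.01 (SE 0.13). Lmod1 with -0.40 (SE 0.19), Smtn with -0.26 (SE 0.17) and Myh11 with -0.12 (SE 0.15) lay on the other side. The second probe of Lmod1 gave -0.60 (limma, SE 0.18, 0.660-fold, adjusted p = 0.117). It was the only 1 of the 14 probes for which the groups did not overlap, beside 9.23% of all probes, and by the brightest probe of each gene the count was 0 of 9. For all 9 genes the 95% interval of the difference lay inside a 2-fold change in either direction.

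These values rest in part on rat M6, whose Des, Acta2 and Cnn1 lay with Group C. Without M6, Des differed by 0.66 with an adjusted p of 0.0446 (limma), still below 2-fold, and 16.2% of all probes reached an adjusted p of at most 0.05. Leaving out other rats moved the differences either way. Without C2, Des was at 0.58 (adjusted p = 0.147, limma), and without C4, Acta2 was at 0.60 (adjusted p = 0.236, limma). Without C1, Des was at 0.38 (adjusted p = 0.360, limma) and Cnn1 at 0.18 (adjusted p = 0.655), and without M8, Des was at 0.42 (adjusted p = 0.364) and Acta2 at 0.32 (adjusted p = 0.506). The array quality weights of limma are set by how far each array departs from its own group, so that a deviating rat counts less. They are not a measure of technical faults. M6 had the lowest weight and M8 the highest. With these weights Des, Acta2, Cnn1 and Actg2 had adjusted p values of 0.0104, 0.00957, 0.0226 and 0.0145 (limma). Their differences were 0.82, 0.85, 0.75 and 0.46, and again none reached 2-fold. These 4 of the 9 genes stood beside 26.8% of all probes that reached 0.05 after adjustment under the same weights, against 0.204% with equal weights.

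The comparison of Group D vs Group M asks what VSL#3 changed in NMS rats. The members again split: Lmod1 and Smtn had higher means in Group D, Des, Cnn1 and Acta2 lower ones, and the median of the 9 was 0.04, beside 0.01 over all probes. By limma's adjusted p with the 2-fold threshold 0 of 9 were called, where 0.128% of all probes were. At an unadjusted p of at most 0.05 there were 2 of 9, Lmod1 and Smtn, beside 21.6% of all probes. The groups did not overlap for 2 of 9, the same Lmod1 and Smtn, both higher in Group D, beside 15.8% of all probes, and the criterion of the methods was met by 0 of 9, beside 2.66% of all probes.

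Lmod1 differed by 0.70 (limma, SE 0.20, 1.62-fold, adjusted p = 0.115) and by 0.76 (SE 0.19, 1.69-fold, adjusted p = 0.0959) by its second probe. Smtn differed by 0.57 (limma, SE 0.19, 1.48-fold, adjusted p = 0.137) and by 0.52 (SE 0.18) by its second probe, with no overlap by either. With rat D12 the groups overlapped for both genes, and the differences were 0.50 (SE 0.23) for Lmod1 and 0.43 (SE 0.20) for Smtn, with adjusted p values of 0.417 for each gene (limma). Myh11 with 0.30 (SE 0.16) and Mylk with 0.22 (SE 0.14) lay on the same side as Lmod1 and Smtn. Des with -0.49 (SE 0.22), Cnn1 with -0.48 (SE 0.24) and Acta2 with -0.47 (SE 0.25) lay on the other, and Actg2 and Tagln were at -0.03 (SE 0.16) and 0.04 (SE 0.16). The second probes of Myh11 and Mylk gave smaller differences, 0.16 (SE 0.16) and 0.0004 (SE 0.16).

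For 6 of the 9 genes the 95% interval stayed inside a 2-fold change. The 3 exceptions were Lmod1, whose interval reached 1.16 on the log2 scale, and Acta2 and Cnn1, whose intervals reached -1.02 and -1.01. Both this comparison and that of Group M vs Group C hold the same 4 rats of Group M, so that opposite signs for Des, Cnn1, Acta2, Lmod1 and Smtn are not independent of each other. Without M6, Lmod1 differed by 0.79 with an adjusted p of 0.0389 (limma), where 14.8% of all probes reached an adjusted p of at most 0.05. Without M7 it was at 0.53 (adjusted p = 0.205) and without D11 at 0.54 (adjusted p = 0.287). With array quality weights, 5 of the 9 genes, Acta2, Cnn1, Des, Lmod1 and Smtn, had adjusted p values between 0.0216 and 0.0496 (limma), and none of the differences reached 2-fold. Under the same weights 21.7% of all probes had an adjusted p of at most 0.05, against 0.171% with equal weights.

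Group D vs Group C compared treated NMS rats with rats that were not separated. By the brightest probe of each gene, 7 of the 9 genes had higher means in Group D. The differences ran from -0.11 for Cnn1 to 0.30 for Smtn and Lmod1, and their median was 0.17, beside -0.01 over all probes. With rat D12 that median was 0.07. The second probes of Myh11 and Mylk were slightly lower in Group D, at -0.0065 and -0.063. Those of Actg2, Lmod1 and Smtn were higher there, as their brightest probes were. By limma's adjusted p with the 2-fold threshold 0 of 9 were called, beside 0.00659% of all probes. The count was also 0 of 9 at an unadjusted p of at most 0.05 (5.97% of all probes), for groups that did not overlap (7.57% of all probes) and by the criterion of the methods (0.369% of all probes). All 9 intervals lay inside a 2-fold change.

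**Figure D2:**
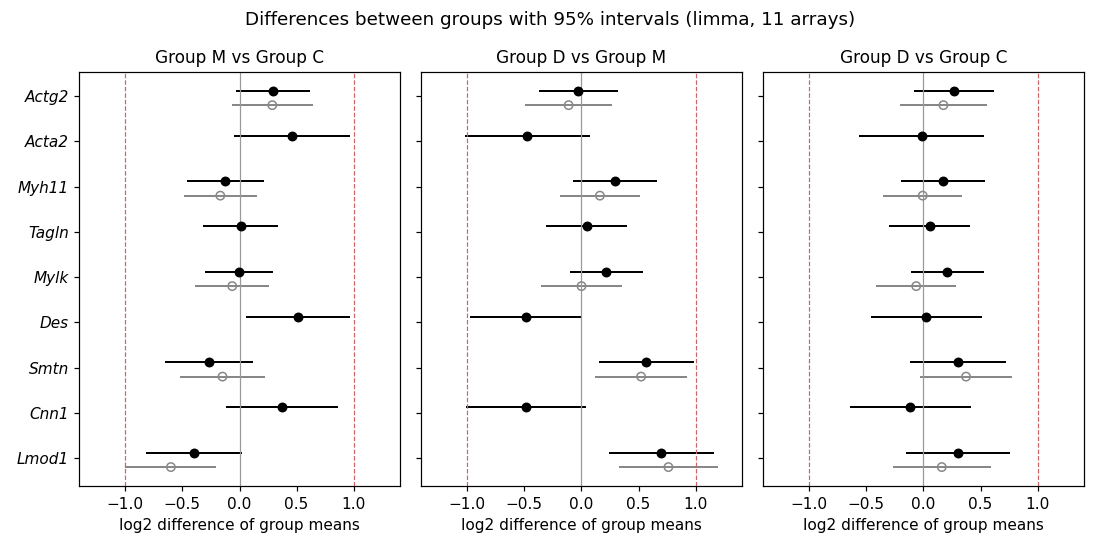
Log2 difference of the group means (horizontal axes) for each gene in the 3 comparisons, from limma on 11 arrays; points are the estimates, lines the 95% intervals, filled black the brightest probe and open grey the second probe where there is one, and dashed lines mark a 2-fold change. By the brightest probes, Des and Lmod1 lie furthest from zero on either side in Group M vs Group C (0.51 and -0.40), and the second probe of Lmod1 is at -0.60. In Group D vs Group M, Lmod1 is at 0.70 by its brightest probe and at 0.76 by its second. In Group D vs Group C all points lie between -0.11 and 0.37.

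The rats also differed from each other within every group. Over all 12 rats the SD of a member's log2 level had a median of 0.319, beside 0.255 for the 20305 probes well above background on all arrays, and within groups the values were 0.254 and 0.211. The median of the 9 genes relative to the mean of Group C was -0.13, -0.02, -0.10 and 0.24 in C1 to C4, 0.24, -0.07, -0.12 and 0.20 in M5 to M8 and 0.14, -0.08 and 0.36 in D9 to D11, with -0.18 in D12. Each group thus held rats with high and rats with low levels, and the highest rat was D11 for 4 of the genes and M8 for 3, while C1 was the lowest for 4. In C4 all 9 genes lay above the mean of Group C.

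**Figure D3:**
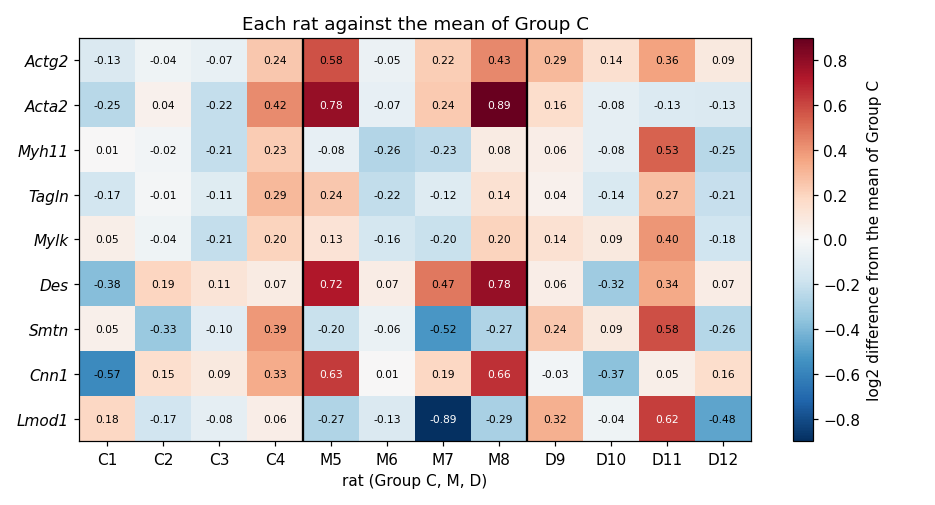
Log2 difference of each rat (columns) from the mean of Group C for each gene (rows), with the value in each cell; red is above and blue below that mean, and lines part the groups. Rats C4 and D11 are red in nearly every row, while M5, M7 and M8 are red for Des, Acta2, Cnn1 and Actg2 and blue for Smtn and Lmod1, down to -0.89 for Lmod1 in M7.

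Pairs of members were compared over the 12 rats as a description, since all genes of a rat share its array, its scaling and the amount of muscle in the sample. Of 36 pairs, 30 had a positive Pearson r, with a median of 0.565. The tightest pairs were Myh11 with Mylk (Pearson r 0.919, Spearman rho 0.867), Des with Cnn1 (0.908 and 0.846) and Smtn with Lmod1 (0.899 and 0.909), each over 12 rats. The lowest value was that of Cnn1 with Lmod1, with a Pearson r of -0.376, and Des with Lmod1 and Des with Smtn were also below zero, at -0.356 and -0.347.

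With the mean of each group taken off, 35 of the 36 pairs had a positive r and the median was 0.671. The 3 tightest pairs stayed at 0.935, 0.880 and 0.856 in that order. Des with Lmod1 went from -0.356 to 0.05, and Cnn1 with Lmod1 from -0.376 to -0.08. On the slide of Groups C and M alone, over 8 rats, 27 of 36 pairs were positive with a median of 0.452. The paired probes of 1 gene followed each other with r of 0.930 for Lmod1, 0.923 for Myh11, 0.914 for Actg2, 0.957 for Smtn and 0.757 for Mylk over the 12 rats.

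**Figure D4:**
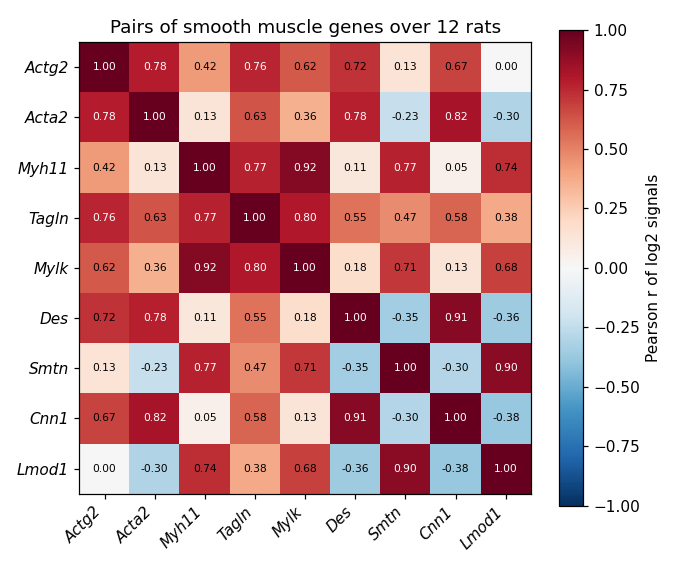
Pearson r of the log2 signals of each pair of the 9 genes over 12 rats (rows and columns are genes, red positive, blue negative). Myh11 with Mylk, Des with Cnn1 and Smtn with Lmod1 are the darkest cells off the diagonal, and Lmod1 and Smtn are blue only against Acta2, Des and Cnn1.

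For likeness, the mean of the 9 genes, each standardised over the 12 rats, was set against 11785 other named genes with a probe well above background on all arrays. Of the 10 genes with the highest Pearson r, Kcnmb1 (0.924), the beta subunit of the large-conductance calcium-activated potassium channel of smooth muscle, Csrp1 (0.862), a cysteine- and glycine-rich LIM protein, Myl9 (0.857), the regulatory light chain of smooth muscle myosin, and Flna (0.821), the actin crosslinker filamin A, were on the lists of contractile partners or contraction control. The others were B4galt2 (0.936), a galactosyltransferase, Olr202 (0.909), Fxyd6 (0.882), Spink8 (0.870), Cpxm2 (0.863) and Igfbp2 (0.802). The 5 most opposite were Rnf6 (-0.848), Sdccag3 (-0.824), Taf5l (-0.793), Neurl3 (-0.757) and Zfp319 (-0.739). All of these are the extremes of 11785 values of r over only 12 rats. How many unrelated genes would reach such values by chance was not tested. Among the members themselves, Tagln followed the mean most closely (r 0.961 over the 12 rats) and Lmod1 least (0.433). Each member is itself part of that mean, which raises its r, so these values are not set against those of the other genes.

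Of 20 contractile partners, which build the filaments, dense plaques and adhesions to which the members attach, 16 were on the array by symbol. In Group M vs Group C 0 of them were called by limma or by the criterion of the methods, and 4 passed the unadjusted threshold, Vcl, Actn1, Fhl1 and Lpp, all higher in Group M, with a median of 0.21 over the list. These 4 of 16 stood beside 22.7% of all probes at that threshold. The highest was Actn1, alpha actinin 1, which crosslinks actin, at 0.85 (limma, SE 0.24, adjusted p = 0.112), and the lowest among those well above background on all arrays was Synm, the intermediate filament protein synemin, at -0.09 (SE 0.15). In Group D vs Group M 3 passed the unadjusted threshold, Vcl, Actn1 and Lpp, all lower in Group D, beside 21.6% of all probes, the median was -0.15, and 0 were called. In Group D vs Group C 0 of 16 passed either threshold of limma, and the median was 0.09.

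Of 21 genes that control contraction or switch on the members, 20 were on the array, and 0 were called by limma in any comparison. At the unadjusted threshold there were 4 in Group M vs Group C, Myocd higher and Prkg1, Chrm2 and Chrm3 lower, and the same 4 with the signs turned in Group D vs Group M, which shares Group M. These 4 of 20 stood beside 22.7% of all probes in the former comparison and 21.6% in the latter. Myocd, myocardin, the cofactor that drives smooth muscle genes, had log2 levels of -3.38, -2.67, -3.55 and -3.57 in C1 to C4, of -2.06, -2.87, -1.98 and -2.24 in M5 to M8 and of -3.44, -3.86 and -3.55 in D9 to D11, with -3.25 in D12. Its difference was 1.01 (limma, SE 0.25, adjusted p = 0.0985) in Group M vs Group C and -1.33 (SE 0.26, adjusted p = 0.0738) in Group D vs Group M, and it met the criterion of the methods in both. All 4 rats of Group M lay above D9 to D12, whereas C2 lay above M6. Serum response factor, Srf, differed by 0.17 (SE 0.13) in Group M vs Group C. The muscarinic receptor Chrm3, through which acetylcholine contracts the colon, was the lowest of the list there, at -0.72 (limma, SE 0.27, adjusted p = 0.158), and Chrm2, the more abundant muscarinic receptor of this muscle, was at -0.69 (SE 0.21, adjusted p = 0.118). In Group D vs Group M, Chrm2 was at 0.85 (limma, SE 0.23, adjusted p = 0.1) with D9 to D11 above all of Group M, and with rat D12 the groups overlapped.

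Relatives of the members outside smooth muscle gave a further comparison. Of 8 measured non-muscle relatives, 3 passed the unadjusted threshold in Group M vs Group C, Actb, Actg1 and Tagln2, all higher in Group M with no overlap, beside 22.7% of all probes at that threshold and 9.23% without overlap, and the median was 0.34. Cytoplasmic beta actin, Actb, differed most, by 0.78 (limma, SE 0.19, adjusted p = 0.0981), and Tagln3, a neuronal transgelin, was lowest at -0.15 (SE 0.15). Of 17 genes of striated muscle, 0 were called by limma and 3 met the criterion of the methods in Group M vs Group C, namely Tnnc2, fast troponin C, at 1.62 (limma, SE 0.49, adjusted p = 0.118), Tnnt3, fast troponin T, at 1.01 (SE 0.27, adjusted p = 0.106), and Myh1, which was well above background on 2 of the 12 arrays. These 3 of 17 stood beside 2.31% of all probes by that criterion. Among the genes of this list well above background on all arrays, Tnni2, fast troponin I, was the lowest at -0.05 (SE 0.23). The summed signal of this list was 2.06 to 3.71 in Group C, 2.73 to 6.75 in Group M, 3.85 to 4.06 in D9 to D11 and 4.75 in D12. In Group D vs Group M 2 of this list met the criterion of the methods, beside 2.66% of all probes. They were Myh1 and Myl1, the latter well above background on 8 arrays.

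Markers of other cells of the colon moved between rats too, and their part in the differences of the members was not tested. Leukocyte markers (7 of 8 on the array, 6 of them well above background on all arrays and none at background on all) had a summed signal of 1.65 to 10.1 in Group C, 1.84 to 13.5 in Group M, 1.52 to 2.31 in D9 to D11 and 21.6 in D12. Within Group M, M6 was the lowest, and within Group C, C2 was the highest. A fit without C2 and M6 was added after the data were seen. Leaving out rats that stand apart from their groups narrows the spread, so the p values of that fit are descriptive only. Des differed by 0.72 in Group M vs Group C (limma, adjusted p = 0.0374). Lmod1 differed by 0.79 (adjusted p = 0.0408) and Smtn by 0.63 (adjusted p = 0.044) in Group D vs Group M. None of the 9 genes reached 2-fold in any comparison. In that fit 21.1% of all probes reached an adjusted p of at most 0.05 in Group M vs Group C, beside 1 of the 9 genes. In Group D vs Group M 17.5% did, beside 2 of the 9. The 3 markers of the interstitial cells of Cajal, the pacemaker cells of gut muscle, summed to 8.75 to 13.9 in Group C, 5.45 to 10.54 in Group M, 11.5 to 12.7 in D9 to D11 and 5.30 in D12. As with Lmod1 and Smtn, rats D9 to D11 lay above all of Group M, and D12 lay below it. The epithelial markers summed to 259 to 352, 282 to 412, 283 to 374 and 240 in the same order, and those of fibroblasts to 70.7 to 128, 91.0 to 126, 87.8 to 109 and 80.9.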

How the data were processed

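Colon of 12 rats was measured on 1-colour arrays, 1 per rat. Per the file headers, Agilent Feature Extraction 10.5.1.1 had made the processed intensity of each spot, with the background subtracted and trends across the array removed. These intensities were deposited without normalization between arrays. The authors' matrix holds log2 values, 1 per probe, whose columns share 1 distribution. Gene names and rn4 positions are those of the files. On arrays, signal over background stands in place of depth.

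Levels are log2 of the processed intensity minus log2 of the array's 75th percentile, without control and outlier spots, averaged over the spots of a probe (1 or 2 for the members). A value was missing on some array for 19 of the 30367 probes, none of a member. A gene with 2 probes is counted by its brightest one over all arrays. Groups were compared with limma 3.58.1 (R 4.3.3, the data.table package 1.17.8), 3 groups in 1 model over 11 arrays, Benjamini-Hochberg over all probes. D12 was left out as in the study, and no reason is given there. The labels do not say that the rats of a group came from different litters, so p values measure the spread between these rats.

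The members, the gene lists and the tests were chosen with earlier results of these data known. Named genes are all probes of the members, genes of the other lists past a threshold or at either end of Group M vs Group C, a few described for their role, and the 10 most and 5 least alike. The procedure was tested on simulated data. Alternatives were all 12 arrays, normexp background correction (offset 50), quantile normalization, a median shift, the authors' matrix, outlier spots kept, a filter on dim probes, a replicate block, array quality weights, 2 groups per model, an intensity trend, the mean of a gene's probes, the criterion of the methods, and each rat left out. The fit without C2 and M6 was added after the data were seen. Some results are not reported here. Sequences came from the array files and from RefSeq promoters (GRCr8). Figures were drawn with Python 3.11.15 and matplotlib 3.10.9.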

Additional observations from a re-analysis of the deposited data

Results flagged for a closer look

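One value of the members stood apart in its own group. By the second probe of Lmod1, rat M7 of Group M had a log2 level of -3.62, and the nearest of the other 3 rats was at -3.05. The gap took up 0.872 of the range of the group, above Dixon's 95% critical value of 0.829 for 4 rats. The members were examined in 42 such groups of 4 rats, and chance marks about 1 in 20.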

How the results depend on the processing

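Under every alternative run, 0 of the 9 genes were called in each of the 3 comparisons, and none of the 675 single-gene differences reached 2-fold, the largest being 0.87 on the log2 scale. Of these, 41 had the opposite sign from the reported value, mostly for genes near zero. Mylk in Group M vs Group C was at 0.13 with array quality weights, and Myh11 in Group D vs Group C ran from -0.0091 to 0.299 with 1 rat left out at a time, the lowest without rat D11 and the highest without rat D10. The cause was not tested. With the replicate number as a block, 0 members were called, and the medians of the 9 genes were 0.01, 0.11 and 0.24 in Group M vs Group C, Group D vs Group M and Group D vs Group C. Deviations of rats with the same number correlated between -0.72 and 0.18. With so few rats per group these values can neither show nor exclude a pairing, and the labels do not state one. The block left 1, 1 and 0 called probes of all, beside 50, 39 and 2. Other settings also moved these counts over all probes. In Group M vs Group C there were 10 with all 12 arrays, 2073 with array quality weights, 1772 without rat M6, 5 without rat C1 and 2632 without rats C2 and M6, and in Group D vs Group M 4, 2063, 1978, 6 and 2240 in the same order. By the criterion of the methods 701, 807 and 112 probes passed. Shifting every array to its median took the median difference of all probes in Group D vs Group M from 0.01 to 0.10. With 4, 4 and 3 arrays precision was limited, and the 95% interval of Des in Group M vs Group C ran from 0.06 to 0.96.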

Other observations

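Markers of other cells of the colon wall, taken from lists chosen with the members, gave further values in the comparisons above. Counts at the unadjusted threshold of limma in Group M vs Group C stand beside 22.7% of all probes. Of the 3 markers of the interstitial cells of Cajal, 0 were called by limma, and all 3 passed the unadjusted threshold in Group M vs Group C, lower in Group M. Kit, the receptor these cells depend on, was at -0.49 (limma, SE 0.19, adjusted p = 0.163), Ano1, the chloride channel of their pacemaker current, at -0.63 (SE 0.21, adjusted p = 0.136), and Etv1, their transcription factor, at -0.66 (SE 0.20, adjusted p = 0.118). In Group D vs Group M the 3 genes were at 0.64, 0.79 and 0.69. With rat D12 their median fell from 0.69 to 0.49, and the groups overlapped for all 3.

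Enteric glia were measured by 4 markers, of which 2 had higher and 2 lower means in Group M than in Group C, and 0 were called by limma. Sox10, the transcription factor of glia, was at 0.77 (limma, SE 0.16, adjusted p = 0.0895) in Group M vs Group C with no overlap. Gfap, the glial filament, met the criterion of the methods in both comparisons with Group M, but was well above background on 7 of the 12 arrays. S100b, a calcium-binding protein of glia, was at -0.06 in Group M vs Group C. Of 8 neuronal markers, 5 had lower means in Group M, the median was -0.10, and 1 passed the unadjusted threshold in Group M vs Group C, Tubb3, a neuronal tubulin, at 0.57 (limma, SE 0.17, adjusted p = 0.118).

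In the same comparison 0 of 5 endothelial markers passed the unadjusted threshold of limma, from -0.31 for Kdr to 0.19 for Vwf, and 1 of 4 pericyte markers did, Notch3 at -0.25 (limma, SE 0.11, adjusted p = 0.206), with Cspg4 highest at 0.39. Of 11 epithelial markers 4 passed it, with Krt18 highest at 0.69 and Cldn3 lowest at -0.46. Of 6 fibroblast markers 0 passed it, from -0.11 for Dcn to 0.37 for Col3a1. Of 7 leukocyte markers, 6 had higher means in Group M and the median was 1.25, with Ptprc at 1.25, Cd3e at 1.02 and Cd79b at 2.01. Of these 7, 1 passed the unadjusted threshold, Cd68 at 0.44, and the lowest was Itgam at -0.16. Of the 2 mesothelial and 3 adipocyte markers, Msln was at -0.70 (limma, SE 0.30) and Fabp4 at -0.68 (SE 0.44).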
